A study of Mus musculus with 6 samples.

Results

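The DNA replication machinery was followed here as a group of 44 genes in CD4-CD8- double-negative (DN) thymocytes, the precursors of T cells that carry neither co-receptor. The genes, called members here, were picked by name from known complexes. The rule uses no measured value, but the members were chosen with earlier results of these data known. All 44 were found among the 41457 genes of the tables. All 44 were also among the 12224 genes with enough reads to be tested. Messenger RNA had been sequenced from 2 genotypes with 3 libraries each. BirA mice, labelled WT for genotype, expressed the biotin ligase BirA from the *ROSA26* locus and had their normal *Nfatc1* alleles. Nc1Bio mice carried the same ligase plus the mouse *Nfatc1* locus on a bacterial artificial chromosome (BAC), in which the NFATc1/A protein bears a biotin tag at its C terminus. Per the methods of the study, its mice were on a C57/B6 background, 4 to 6 weeks old and matched for sex and age. DN cells were what remained after magnetic removal of CD4+ and CD8+ cells, so the fraction holds any other cell that carries neither co-receptor. Separate animals are not stated for the libraries in the labels. Each p-value thus sets the difference between genotypes against the spread between libraries of the same genotype, which may be technical.

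Replication of DNA is prepared in G1, when the origin recognition complex, *Cdc6* and *Cdt1* load the MCM helicase onto origins. In S phase, Cdc45 and GINS join the helicase, RPA covers the opened single strand, the primase starts each new strand, and the RFC clamp loader places the ring-shaped clamp PCNA, which tethers polymerases δ and ε. Most of these genes are transcribed as cells enter the cycle, under control of E2F factors and the pocket proteins that hold them back. In the thymus, DN cells that pass the checkpoint of the pre-T cell receptor divide rapidly.

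*Nfatc1* transcripts were higher in every Nc1Bio library than in any BirA library. *Nfatc1* (ENSMUSG00000033016) stood at 152.4, 128.4 and 96.85 CPM (read counts scaled to library size, which was itself adjusted by TMM) in BirA replicates 1, 2 and 3. In Nc1Bio it stood at 572.6, 597 and 550.6 CPM, and the groups did not overlap. The log2 fold change was 2.19 ± 0.16 (SE), with an edgeR adjusted p of 0.0141. The adjusted p went to 0.141 without BirA replicate 2, and to 0.0689, 0.101 and 0.0618 without Nc1Bio replicates 1, 2 and 3 in turn, so that the call was lost in these 4 fits, although the log2 fold change stayed between 2.03 and 2.35 with any 1 library left out.

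Most replication genes had a small log2 fold change above 0 in Nc1Bio over BirA, and none passed the edgeR test over all genes. Of the 44 members, 42 had a log2 fold change above 0 (95.5%, against 49.6% of all genes tested), with a median of 0.25 where the median of all genes was -0.0026. The members' log2 fold changes ran from -0.28 for *Orc1* to 0.53 for *Orc6*. By edgeR, 0 members were called at an adjusted p of 0.05, where 0.00818% of all genes were called higher (*Nfatc1* alone) and 0 lower. The members' adjusted p ran from 0.236 to 0.93, and limma-voom called 0 members as well. At an unadjusted p of 0.05, 17 members were higher (38.6%, against 4.31% of all genes) and 0 lower (against 7.66%). DESeq2 called 4 members higher, *Uhrf1*, *Pold1*, *Mcm5* and *Orc6*, and 0 lower, where it called 0.468% of all genes higher and 2.32% lower. Run on every gene with a read, DESeq2 called *Uhrf1* alone (adjusted p = 0.0161). At the thresholds of the study (adjusted p under 0.01, log2 fold change beyond 0.5 in either direction), DESeq2 called 0 members.

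These counts moved with single libraries. The 17 members at an unadjusted p of 0.05 became 8 without BirA replicate 1, 11 without BirA replicate 2, 26 without BirA replicate 3, 7 without Nc1Bio replicate 2 and 9 without Nc1Bio replicate 3. The share of all genes at that threshold is not given for these fits. Whether the counts moved more than that share is therefore not shown. The 4 DESeq2 calls became 11 without BirA replicate 3, 2 without Nc1Bio replicate 1, and 1 without each of the other 4 libraries. That single call was *Uhrf1* without BirA replicate 1, BirA replicate 2 or Nc1Bio replicate 3, and *Pold1* without Nc1Bio replicate 2. The share of all genes that DESeq2 called higher moved too, to 1.87% without BirA replicate 3. In the other fits without 1 library it was 0.234% to 0.444%. The median of the members stayed above 0 throughout, at 0.17 without BirA replicate 1 and 0.33 without BirA replicate 3, and 42 or 43 of the 44 log2 fold changes were above 0 in each of these fits. The size of single values was less stable. For 28 of the 44 members the log2 fold change moved by more than 1.5 times when some 1 library was left out, for 19 of them when it was BirA replicate 1, for 12 when it was BirA replicate 3 and for 8 when it was Nc1Bio replicate 3. The 16 that stayed within 1.5 times were *Orc2*, *Orc6*, *Mcm2*, *Mcm5*, *Gins1*, *Gins3*, *Rfc2*, *Rfc3*, *Rfc5*, *Prim2*, *Pold1*, *Pole*, *Pole2*, *Rpa1*, *Rrm2* and *Uhrf1*.

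**Figure D1:**
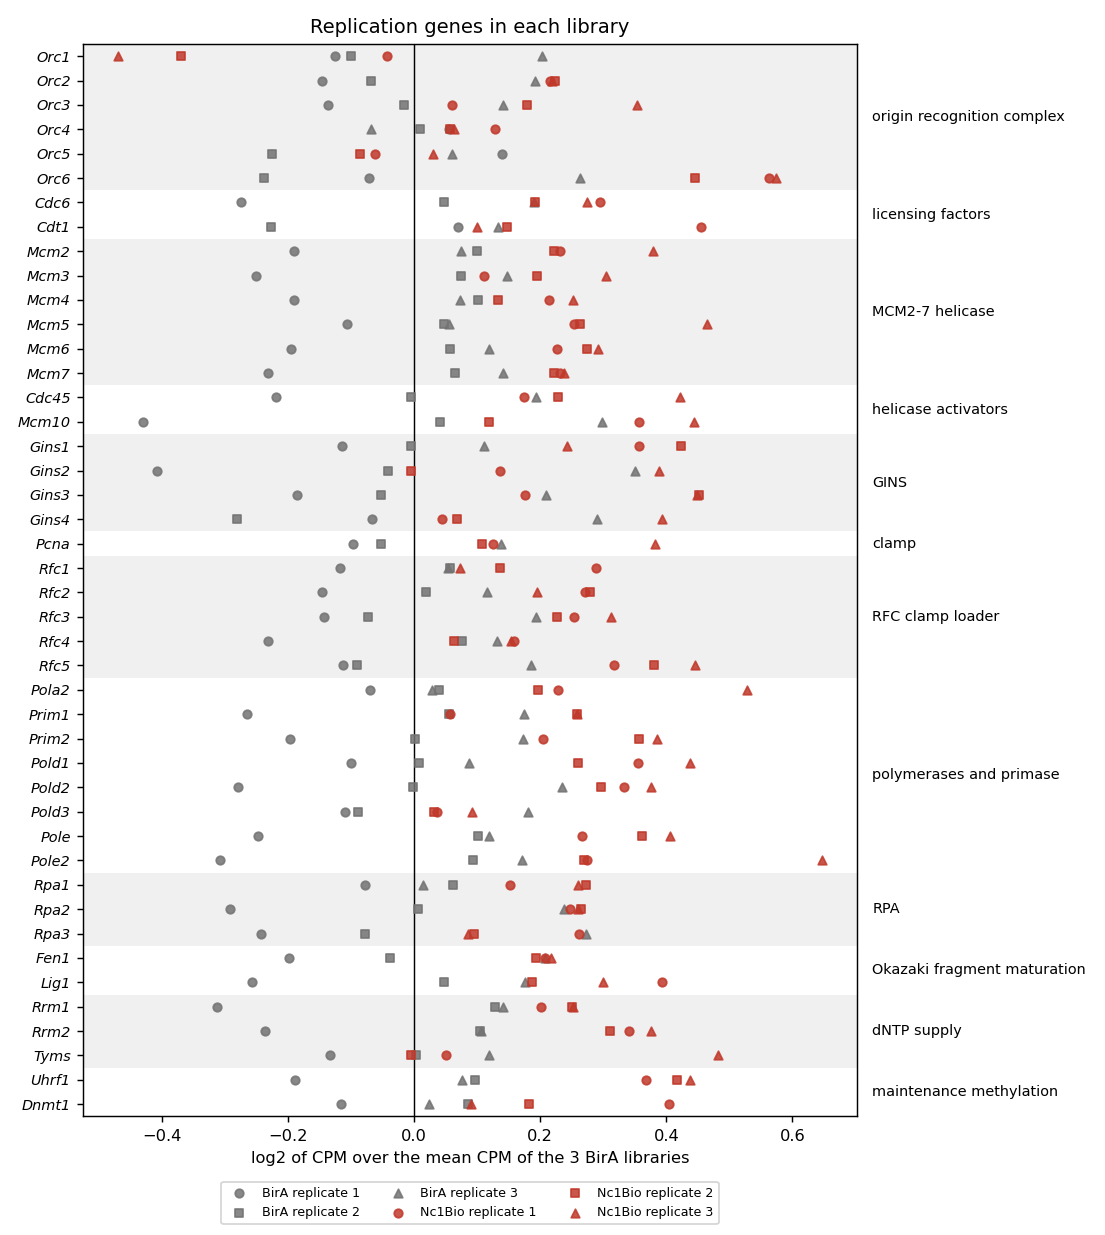
Each point is the CPM of 1 gene in 1 library on a log2 scale, relative to the mean of the 3 BirA libraries (vertical line at 0). Grey symbols are BirA and red symbols Nc1Bio, with circles, squares and triangles for replicates 1, 2 and 3. The grey circle (BirA replicate 1) was lowest for 38 of the 44 genes, and the red symbols lay to the right of all grey ones for 27.

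Within the members, the libraries kept a common order. BirA replicate 1 was the lowest library for 38 of 44 members, and Nc1Bio replicate 3 was the highest for 27. Relative to the BirA mean, the median member stood at -0.19, 0.0089 and 0.14 on the log2 scale in BirA replicates 1, 2 and 3, and at 0.23, 0.22 and 0.30 in Nc1Bio. The BirA libraries were therefore spread over a range of the same order as the distance between the genotypes. For 27 members (61.4%) all 3 Nc1Bio libraries lay above all 3 BirA libraries, as did 8.45% of all genes, and for 0 members they lay below, as did 9.98% of all genes. The coefficient of variation between libraries had a median of 12.8% in BirA and 6.18% in Nc1Bio, and it was larger in BirA for 35 of the 44 members. Summed over the members, the level was 9197 ± 979.6 CPM (SD, n = 3) in BirA and 11060 ± 378.9 CPM in Nc1Bio, a ratio of 1.20. In such bulk samples, more cells in S phase and more RNA per cell cannot be told apart.

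**Figure D2:**
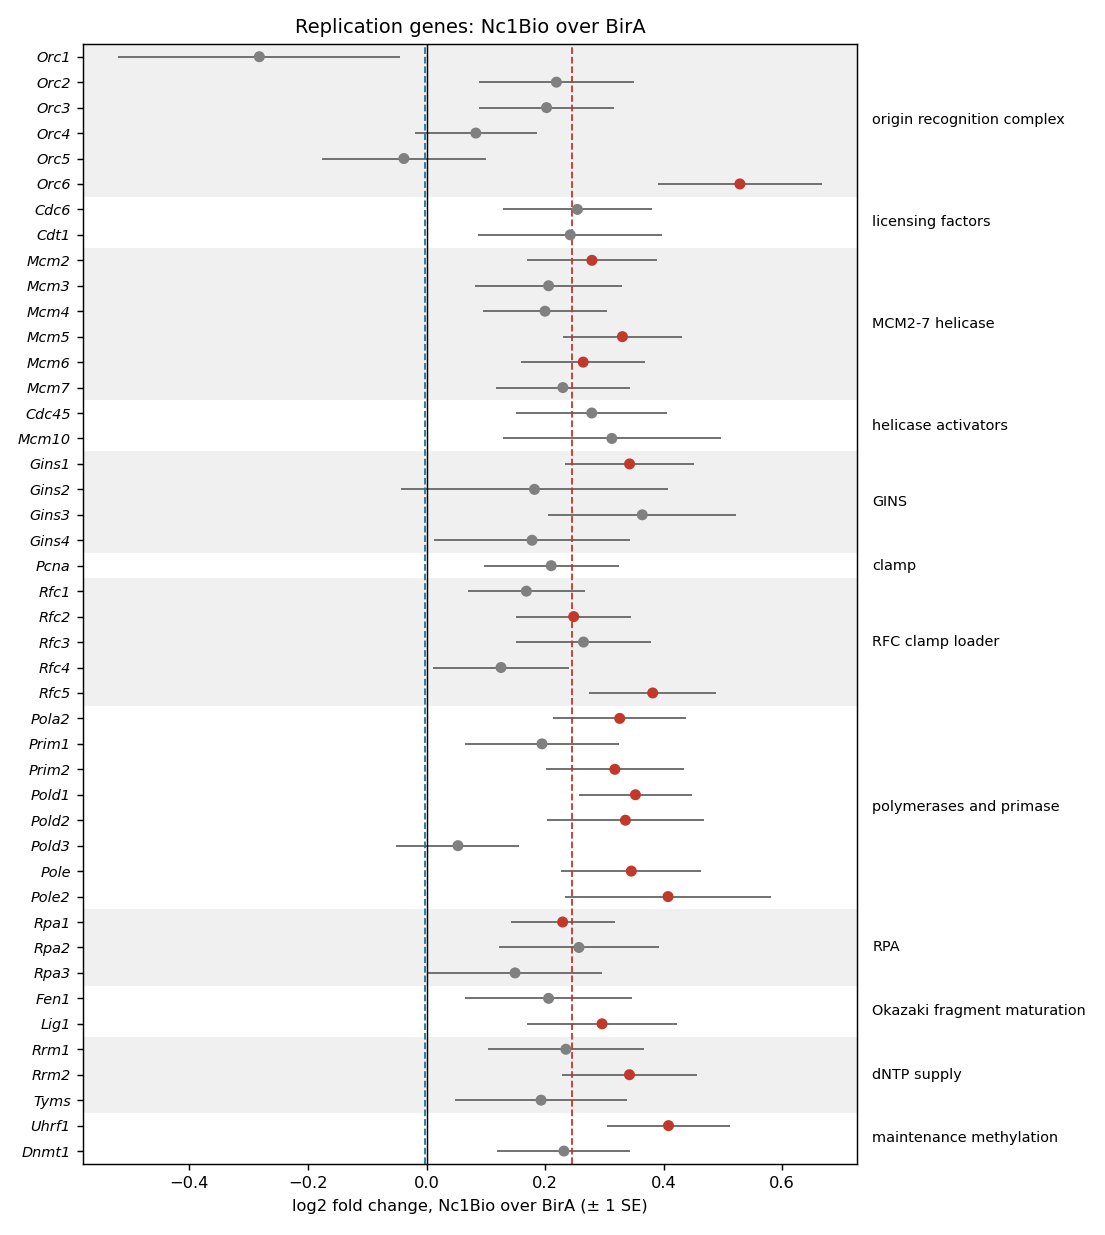
Log2 fold change of each member, Nc1Bio over BirA, with bars of 1 SE from the edgeR fit to all 6 libraries. Red points have an unadjusted p under 0.05 (17 genes), the red dashed line is the members' median (0.25) and the blue dashed line the median of all genes tested (-0.0026), and the red points lay between 0.23 (*Rpa1*) and 0.53 (*Orc6*).

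Promoters of the members were read from RefSeq (GRCm38.p6), from 250 bases before to 50 bases after each start, and 37 of the 44 members matched by symbol. The members without an entry were *Mcm4*, *Gins1*, *Gins2*, *Gins4*, *Rfc2*, *Prim2* and *Pole*. The E2F-type motifs TTTGGCGC, TTTCCCGC, TTTGCCGC and TTTCGCGC were searched on both strands. At least 1 of them stood in a window of 16 of the 37 (43.2%), against 704 of the 27025 genes with a window (2.6%). The 27025, called all genes in the motif shares below, were not limited to genes with enough reads to be tested, while every member was tested. The share among tested genes alone is not given. A gene with several starts had several windows and was counted once if any of them matched. The 3 stretches that follow are shown because these members had an unadjusted p under 0.05 and a motif that lies wholly before the start. They run 5′ to 3′ on the strand of the gene, with the matched letters in capitals. In *Mcm5* (chr8:75109316-75109407, plus strand) TTTCGCGC and the reverse complement of TTTGGCGC overlap, the first beginning 153 bases before the start. In *Mcm6* (chr1:128359706-128359855, minus strand) the same pair overlaps from 110 bases before the start, and TTTGGCGC recurs 47 bases before it. In *Uhrf1* (chr17:56304088-56304175, plus strand) TTTCGCGC begins 185 bases before the second of the gene's listed starts.
Mcm5: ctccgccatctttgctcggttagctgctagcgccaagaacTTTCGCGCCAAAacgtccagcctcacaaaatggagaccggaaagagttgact
Mcm6: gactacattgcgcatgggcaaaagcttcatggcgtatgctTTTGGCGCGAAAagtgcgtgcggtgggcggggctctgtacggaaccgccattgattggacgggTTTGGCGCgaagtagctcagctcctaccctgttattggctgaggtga
Uhrf1: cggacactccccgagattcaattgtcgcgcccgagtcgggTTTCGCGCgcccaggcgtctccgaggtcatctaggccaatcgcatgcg

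The other windows with an E2F-type match belonged to *Orc1*, *Orc3*, *Cdc6*, *Cdt1*, *Mcm3*, *Mcm7*, *Gins3*, *Rfc3*, *Pold1*, *Pold3*, *Pole2*, *Lig1* and *Dnmt1*. By motif, TTTCGCGC stood in a window of 21.6% of members (0.374% of all genes), TTTCCCGC of 21.6% (1.24%), TTTGGCGC of 16.2% (0.585%) and TTTGCCGC of 0% (0.507%). The CCAAT box stood in a window of 64.9% of members and 41.1% of all genes, and the E-box CACGTG of 18.9% and 8.09%. GGAAA, the core letters of NFAT sites, stood in a window of 81.1% and 64.4%. GGAAA also lies within the reverse complement of TTTCCCGC, so these matches are not separate. Members with and without an E2F-type match had like values, with a median log2 fold change of 0.26 for the 16 and 0.23 for the 21, of which 6 and 7 had an unadjusted p under 0.05. A match is a description of these letters and not a site of binding.

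The origin recognition complex, which marks origins, was the most uneven group. Its 6 subunits had a median log2 fold change of 0.14, with 4 above 0. At an unadjusted p under 0.05, 1 was higher (16.7%, against 4.31% of all genes). *Orc6* (ENSMUSG00000031697, chr8:85299632-85308278, GRCm38), the smallest subunit, read 49.52, 44.12 and 62.46 CPM in BirA and 76.87, 70.85 and 77.42 CPM in Nc1Bio. Every Nc1Bio library lay above the highest BirA library. Its log2 fold change was 0.53 ± 0.14 (SE), the highest of all members, with an edgeR adjusted p of 0.247 and a DESeq2 adjusted p of 0.0458. *Orc2*, *Orc3* and *Orc4* had log2 fold changes of 0.22, 0.20 and 0.083, and *Orc5* of -0.038. *Orc1*, the ATPase subunit whose level changes with the cell cycle, was the lowest member, at 9.61 ± 1.25 CPM (SD, n = 3) in BirA and 7.9 ± 1.26 CPM in Nc1Bio. Its log2 fold change of -0.28 turned to 0.053 on total reads, and 38.1% of its total reads were unique. *Orc1* overlaps *Gm12743* on the other strand.

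Of the licensing factors, *Cdc6*, the ATPase that loads the helicase together with Cdt1, read 87.64, 109.5 and 120.9 CPM in BirA and 130, 121.1 and 128.2 CPM in Nc1Bio. The highest BirA library and the lowest Nc1Bio library were almost equal. By edgeR the log2 fold change, 0.25 ± 0.13 (SE), had an adjusted p of 0.472. *Cdt1* had a log2 fold change of 0.24 with overlapping groups, and 24.3% of its reads were unique. It overlaps *Gm20388*, and what lowers the unique share of any member was not tested.

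The 6 subunits of the MCM2-7 helicase had log2 fold changes from 0.20 (*Mcm4*) to 0.33 (*Mcm5*), and none was called by edgeR. Without BirA replicate 1 they ran from 0.094 (*Mcm3*) to 0.28 (*Mcm5*). For 5 of the 6, all but *Mcm3*, all Nc1Bio libraries lay above BirA (83.3%, against 8.45% of all genes). *Mcm2*, *Mcm5* and *Mcm6* were higher at an unadjusted p under 0.05 (50%, against 4.31% of all genes). *Mcm5* (ENSMUSG00000005410, chr8:75109569-75128439), whose promoter letters are shown above, read 562.8, 626.1 and 629.9 CPM in BirA and 722.5, 727.2 and 836.9 CPM in Nc1Bio. The 3 Nc1Bio libraries stood apart from BirA, with replicate 3 the highest. Its log2 fold change was 0.33 ± 0.10 (SE), at an edgeR adjusted p of 0.302 and a DESeq2 adjusted p of 0.0432.

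*Mcm6* (ENSMUSG00000026355, chr1:128331590-128359664) was the most abundant subunit, at 718.3, 855.6 and 892.3 CPM in BirA and 961.7, 993.7 and 1006 CPM in Nc1Bio. BirA replicate 1 stood below its group, and the Nc1Bio libraries lay close together. The log2 fold change was 0.26 ± 0.11 (SE), with an edgeR adjusted p of 0.392. *Mcm2* read 472.5, 578 and 568 CPM in BirA and 633.2, 629.2 and 701.3 CPM in Nc1Bio. For *Mcm2* the log2 fold change of 0.28 ± 0.11 (SE) had an edgeR adjusted p of 0.388. *Mcm7* and *Mcm3* had log2 fold changes of 0.23 and 0.21. The 6 subunits, which act as 1 ring, summed to 3506 ± 383.4 CPM (SD, n = 3) in BirA and 4190 ± 173.8 CPM in Nc1Bio.

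The factors that turn the loaded ring into an active helicase had overlapping groups for 5 of 6 genes. *Cdc45* read 77.31, 89.7 and 102.9 CPM in BirA and 101.5, 105.4 and 120.5 CPM in Nc1Bio. Nc1Bio replicate 1 fell below the highest BirA library, and the log2 fold change was 0.28 ± 0.13 (SE), with an edgeR adjusted p of 0.444. *Mcm10*, which is needed to start unwinding, had a log2 fold change of 0.31, which went to 0.14 without BirA replicate 1 and to 0.49 without BirA replicate 3. Among the 4 GINS subunits, *Gins1* was the only one without overlap, at 38.12, 41.11 and 44.53 CPM in BirA against 52.8, 55.3 and 48.81 CPM in Nc1Bio. With a log2 fold change of 0.34 ± 0.11 (SE), it reached an edgeR adjusted p of 0.318. *Gins4* read 72.12, 62.17 and 92.33 CPM in BirA and 77.87, 79.19 and 99.24 CPM in Nc1Bio, a log2 fold change of 0.18 ± 0.17 (SE) with an adjusted p of 0.70. *Gins3* and *Gins2* had log2 fold changes of 0.36 and 0.18, and that of *Gins2* went to 0.014 without BirA replicate 1 and to 0.40 without BirA replicate 3. Of the reads of *Gins2*, which overlaps *Gm20388* and *Gse1*, 19.8% were unique.

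*Pcna*, the sliding clamp, read 508.2, 523.9 and 597.8 CPM in BirA and 592.7, 585.2 and 707.7 CPM in Nc1Bio. The groups overlapped, and the log2 fold change was 0.21 ± 0.11 (SE), with an edgeR adjusted p of 0.504. Of its total reads 49.1% were unique, with no overlapping gene, and the log2 fold change on total reads was 0.19.

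The 5 subunits of the RFC clamp loader all had log2 fold changes above 0, and their median was 0.25. *Rfc5* (ENSMUSG00000029363) read 97.96, 99.44 and 120.4 CPM in BirA and 131.9, 137.8 and 144.2 CPM in Nc1Bio. All Nc1Bio libraries lay above BirA, and the log2 fold change was 0.38 ± 0.11 (SE), with an edgeR adjusted p of 0.274. *Rfc2* read 120.7, 135.2 and 144.6 CPM in BirA and 161, 161.9 and 152.8 CPM in Nc1Bio. These groups were also apart, with a log2 fold change of 0.25 ± 0.097 (SE) and an adjusted p of 0.388. *Rfc4* read 60.78, 75.23 and 78.23 CPM in BirA and 79.7, 74.64 and 79.43 CPM in Nc1Bio, with BirA replicate 1 below the rest, and the edgeR fit gave a log2 fold change of 0.13 ± 0.12 (SE), at an adjusted p of 0.695. *Rfc3* and *Rfc1*, the large subunit, had log2 fold changes of 0.26 and 0.17.

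The 8 polymerase and primase genes among the members had the highest median log2 fold change among groups with 3 or more genes, at 0.33. Polymerase subunits outside the member list were not counted in it. Their log2 fold changes were 0.11 (*Pola1*), 0.077 (*Pole3*), 0.22 (*Pole4*) and -0.94 (*Pold4*). Of the 8 members, 6 were higher at an unadjusted p under 0.05 (75%, against 4.31% of all genes). *Pold1* (ENSMUSG00000038644, chr7:44532746-44548849) encodes the catalytic subunit of polymerase δ, which copies the lagging strand. It read 291.8, 314.7 and 332.2 CPM in BirA and 400, 374.5 and 423.9 CPM in Nc1Bio. The gap between the groups was wider than the range within BirA. The log2 fold change was 0.35 ± 0.095 (SE), with an edgeR adjusted p of 0.263 and a DESeq2 adjusted p of 0.0219. *Pold2*, its partner subunit, read 125.5, 152.1 and 179.2 CPM in BirA and 191.9, 187 and 197.5 CPM in Nc1Bio, a log2 fold change of 0.34 ± 0.13 (SE) with an edgeR adjusted p of 0.39. BirA was spread far more widely than Nc1Bio for this gene. *Pold3*, another subunit of the same enzyme, had a log2 fold change of 0.053, and its highest library was BirA replicate 3.

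*Pole*, the catalytic subunit of polymerase ε on the leading strand, read 92.4, 117.7 and 119.1 CPM in BirA and 131.9, 141 and 145.3 CPM in Nc1Bio. The log2 fold change of *Pole* was 0.35 ± 0.12 (SE), and its edgeR adjusted p was 0.345. Its partner *Pole2* read 24.04, 31.76 and 33.49 CPM in BirA and 35.98, 35.88 and 46.58 CPM in Nc1Bio. Both groups of libraries stood apart for each gene, and *Pole2* had a log2 fold change of 0.41 ± 0.17 (SE) with an adjusted p of 0.412. *Pola2*, a subunit of polymerase α, which extends the primers, read 108.6, 117.1 and 116.2 CPM in BirA and 133.6, 130.6 and 164.3 CPM in Nc1Bio. For *Pola2* the log2 fold change of 0.33 ± 0.11 (SE) had an edgeR adjusted p of 0.347. *Prim2*, the large primase subunit, read 80.2, 92.01 and 103.6 CPM in BirA and 105.9, 117.7 and 120.1 CPM in Nc1Bio. Its log2 fold change of 0.32 ± 0.12 (SE) had an edgeR adjusted p of 0.369. The catalytic primase subunit *Prim1* had a log2 fold change of 0.19 with overlapping groups.

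*Rpa1*, the large subunit of the complex that covers single-stranded DNA, read 275.8, 303.8 and 293.9 CPM in BirA and 323.7, 351.9 and 348.5 CPM in Nc1Bio. The groups were apart, with a log2 fold change of 0.23 ± 0.088 (SE) and an edgeR adjusted p of 0.386. *Rpa2* and *Rpa3* had log2 fold changes of 0.26 and 0.15. *Lig1*, the ligase that joins Okazaki fragments, read 236.7, 292.3 and 319.7 CPM in BirA and 371.5, 322.1 and 348.3 CPM in Nc1Bio. The highest BirA and the lowest Nc1Bio library were close, and the log2 fold change of 0.30 ± 0.13 (SE) had an edgeR adjusted p of 0.415. *Fen1*, the flap nuclease of the same step, had a log2 fold change of 0.21 from the 13.6% of its reads that were unique. It overlaps *Gm10143* and *Tmem258*. On total reads it was 0.18.

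Of the genes that supply deoxynucleotides, *Rrm2* (ENSMUSG00000020649), the subunit of ribonucleotide reductase made in S phase, read 289.9, 367.5 and 367.9 CPM in BirA. In Nc1Bio it read 432.6, 423.8 and 443.3 CPM, above every BirA library. The log2 fold change was 0.34 ± 0.11 (SE), with an edgeR adjusted p of 0.331. *Rrm1*, the large subunit of the same enzyme, had a log2 fold change of 0.23 (0.10 without BirA replicate 1), and *Tyms*, thymidylate synthase, of 0.19 (0.025 without Nc1Bio replicate 3).

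*Uhrf1* (ENSMUSG00000001228, chr17:56303321-56323486), which brings the DNA methyltransferase Dnmt1 to newly copied DNA, had the lowest p of all members. It read 462.7, 563.8 and 555.9 CPM in BirA and 680.8, 704.6 and 714.4 CPM in Nc1Bio. The distance between the groups exceeded the range within BirA. Its log2 fold change was 0.41 ± 0.10 (SE), at an edgeR adjusted p of 0.236 and a DESeq2 adjusted p of 0.0048. *Dnmt1* itself had a log2 fold change of 0.23, with the groups just apart.

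Levels of different genes were compared per length, as unique exon reads per kb of exon on the same CPM scale. Among the members *Pcna* stood first, at 226 ± 20 (SD, n = 3) in BirA and 261.5 ± 28.6 in Nc1Bio. *Mcm6* followed at 176 ± 19.8 in BirA, *Mcm7* at 161 ± 21.1 and *Mcm5* at 152 ± 9.38. Compared within each library, *Pcna* lay above *Mcm6*, and *Mcm6* above *Mcm7*, in 6 of 6 libraries, while *Mcm7* lay above *Mcm5* in 4 of 6. *Mcm3* stood at 131 ± 18.4, *Mcm4* at 93 ± 9.99 and *Mcm2* at 77.5 ± 8.4, and apart from *Mcm7* and *Mcm5* each pair of the 6 subunits kept its order in 6 of 6 libraries. The exon length is 1 fixed value per gene (6956 bases for *Mcm2*, 3589 for *Mcm4*), so agreement between libraries does not test it. Before division by length the order of these genes was reversed, with *Mcm2* at 539.5 CPM and *Mcm4* at 333.9 CPM in BirA. The origin recognition complex was at the low end, from 21 for *Orc6* down to 2.66 ± 0.33 for *Orc1*. Several members with a low unique share ranked higher on total exon reads, where *Fen1* moved from rank 34 to rank 9 in BirA, *Cdt1* from 36 to 21, *Gins2* from 43 to 32, *Orc2* from 40 to 33 and *Orc1* from 44 to 42. On that scale *Orc5* was the lowest member, at 3.63, followed by *Orc4* at 3.85 and *Orc1* at 4.58.

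**Figure D3:**
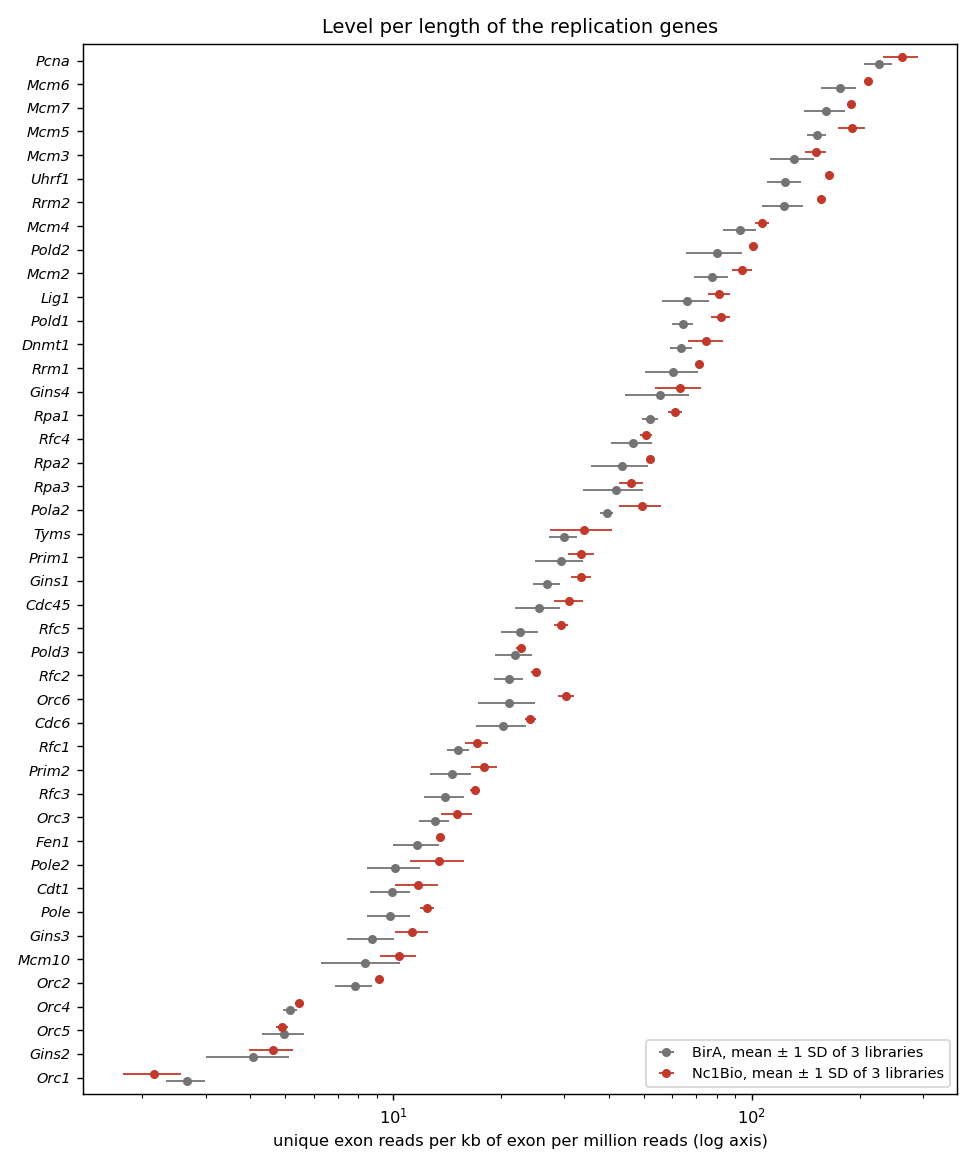
Unique exon CPM per kb of exon for each member, on a log axis, as mean ± 1 SD of the 3 BirA (grey) and 3 Nc1Bio (red) libraries, in the order of the BirA mean. *Pcna* and *Mcm6* stood at the top and *Orc1* at the bottom (*Orc5* on total exon reads), and the genotypes differed far less than the genes did.

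Reads in introns were few among the members, at 0.371 ± 0.0523% (SD, n = 3) of their unique exon and intron reads in BirA and 0.38 ± 0.0865% in Nc1Bio. Over all genes this share was 2.06 ± 0.108% and 1.77 ± 0.246%. For 36 of the 44 members the share was under 1%. The highest shares were those of *Orc3* (7.12% in BirA, 6.81% in Nc1Bio) and *Prim2* (5.79% and 6.83%).

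Other genes of replication and of the cell cycle had log2 fold changes of like size. Of 39 further replication factors, 36 had a log2 fold change above 0, with a median of 0.27 (0.15 without BirA replicate 1). By edgeR and DESeq2, 0 of them were called. At an unadjusted p of 0.05 there were 10 higher (25.6%, against 4.31% of all genes) and 2 lower (against 7.66% of all genes). *Gmnn*, which encodes geminin, the inhibitor of Cdt1, was at 83.4 ± 5.95 CPM (SD, n = 3) in BirA and 107.3 ± 6.06 CPM in Nc1Bio, a log2 fold change of 0.36. *Dna2*, a nuclease and helicase, had a log2 fold change of 0.41, and *Timeless*, of the fork protection complex, of 0.35. The 2 lower genes, named after their values were seen, were *Samhd1*, which breaks down deoxynucleotides, at 110 ± 44.6 CPM in BirA and 48.5 ± 19.9 CPM in Nc1Bio, and *Pold4*, a small subunit of polymerase δ, at 22.2 ± 10.4 and 11.6 ± 1.77 CPM.

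Among 13 E2F and pocket protein genes, 12 had a log2 fold change above 0, with a median of 0.25 (0.38 without BirA replicate 3), and edgeR called 0. At an unadjusted p of 0.05, 4 were higher (30.8%, against 4.31% of all genes) and 1 lower (against 7.66%). DESeq2, which called 0.468% of all genes higher and 2.32% lower, called 1 higher and 1 lower. *Rbl2*, which encodes the pocket protein p130 of resting cells, was the gene with a log2 fold change below 0. It read 60.78, 56.47 and 68.71 CPM in BirA and 31.48, 34.29 and 37.32 CPM in Nc1Bio, with all Nc1Bio libraries below BirA. Its log2 fold change was -0.85 ± 0.12 (SE), at an edgeR adjusted p of 0.106 and a DESeq2 adjusted p of 2.81e-05, on the 58% of its reads that were unique. *E2f2*, an activating E2F, read 184.2, 209.9 and 193.5 CPM in BirA and 261.8, 253.4 and 281.3 CPM in Nc1Bio, a log2 fold change of 0.44 ± 0.093 (SE) with a DESeq2 adjusted p of 0.00215 and an edgeR adjusted p of 0.17. *E2f6*, a repressive E2F, had a log2 fold change of 0.33.

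All 30 genes of G2 and mitosis had a log2 fold change above 0, with a median of 0.24 (0.14 without BirA replicate 1). At an unadjusted p of 0.05, 9 were higher (30%, against 4.31% of all genes) and 0 lower (against 7.66%), and edgeR called 0. DESeq2, which called 0.468% of all genes higher, called *Cdc20* (log2 fold change 0.42, adjusted p = 0.0117) and *Ube2c* (0.35, adjusted p = 0.0357), both of the anaphase-promoting machinery. *Aurka*, a mitotic kinase, had a log2 fold change of 0.35. The median of the replication genes, 0.25, was thus close to that of genes of the next phase. E2F-type motifs stood in a window of 22.6% of the 31 further replication factors that had one. Of the 25 G2 and mitosis genes with a window, 4% held an E2F-type motif and 88% held CCAAT.

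**Figure D4:**
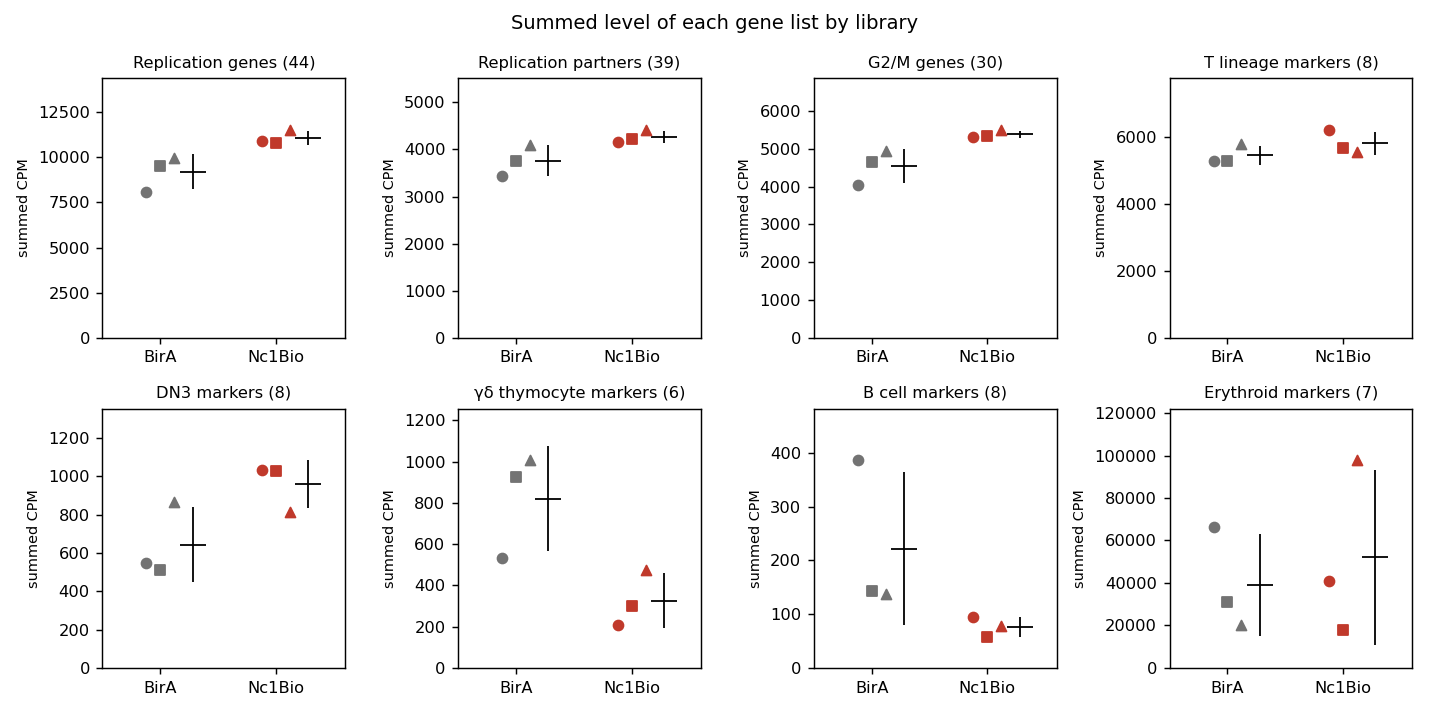
Summed CPM of 8 gene lists (number of genes in brackets) in each BirA (grey) and Nc1Bio (red) library, with circles, squares and triangles for replicates 1, 2 and 3, and mean ± 1 SD beside them. All axes start at 0. The 3 cell cycle lists were higher in every Nc1Bio library than in any BirA library, while γδ thymocyte and B cell markers were lower in every one.

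Markers of cell types differed between the libraries as well. T lineage markers were high in all libraries, from 5285 to 6214 CPM summed over 8 genes (6 higher in Nc1Bio), and the co-receptor genes were low, from 21.1 to 52.6 CPM over 3 (3 lower). Markers of the DN3 stage summed to 642.5 ± 196 CPM (SD, n = 3) in BirA and 958.1 ± 125 CPM in Nc1Bio, with 8 of 8 higher. BirA replicate 3, at 868 CPM, lay above Nc1Bio replicate 3, at 813.8 CPM. Only for *Ptcra* and *Notch3* did the groups not overlap. Most of the sum was *Il2ra* (433 CPM in BirA, 662.4 CPM in Nc1Bio). Of the reads of *Rag1*, *Rag2* and *Ptcra*, 0.584%, 5.6% and 14.75% were unique. Markers of γδ thymocytes summed to 820.4 ± 254.4 and 326.2 ± 134.2 CPM, with 6 of 6 lower. The largest parts of that sum in BirA were *Sox13* (265.2 CPM) and *Etv5* (263.7 CPM). For *Sox13* and *Trdc* the groups overlapped, and for the other 4 genes they did not. B cell markers summed to 222 ± 141.9 and 76.2 ± 18.6 CPM, with 8 of 8 lower and BirA replicate 1, the lowest library for most replication genes, the highest at 385.8 CPM. Macrophage markers ran from 54.75 to 191.6 CPM in BirA and 40.74 to 78.12 CPM in Nc1Bio (6 of 6 tested lower). Those of NK and innate lymphoid cells ran from 627 to 663.3 and 300.2 to 473.9 CPM (4 of 4 tested lower). Most of that sum was *Gzma*, at 554.4, 637.5 and 653.6 CPM in BirA and 274.1, 374.4 and 468.1 CPM in Nc1Bio. For *Klrb1c*, *Prf1* and *Klrk1* the groups overlapped, and BirA replicate 1 was the highest library. Dendritic cell markers ran from 15.7 to 63.2 CPM and those of thymic epithelium from 22.2 to 45.4 CPM over all 6 libraries. Granulocyte markers reached 9283 CPM in BirA replicate 2 and 5615 CPM in Nc1Bio replicate 3 (2 of 8 higher), and erythroid markers ran from 17670 to 97660 CPM, with the highest value in Nc1Bio replicate 3 (7 of 7 higher). Listed at 0 in at least 1 library were *Elane* of granulocytes, *Xcr1*, *Clec9a* and *Cd209a* of dendritic cells, *Ncr1* and *Eomes* of NK cells, and *Krt5*, *Krt8*, *Foxn1*, *Psmb11* and *Aire* of epithelium. The part of these cell types in the values of the replication genes was not tested.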

How the data were processed

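Poly(A) libraries of DN thymocytes had been sequenced from 3 BirA and 3 Nc1Bio samples, grouped by the labels. Per the methods of the study, reads of 59 bases were trimmed, aligned with STAR to GRCm38 and counted with featureCounts, and genotypes compared with DESeq2. The deposited tables hold raw counts for each gene of reads over the gene, its exons and its introns, as unique and as total reads. Their layout is not that of featureCounts, and no source used here names another program or the use of strand. RPKM and TPM columns were not used. Libraries held 11845952 to 15393763 unique gene reads (64.1% to 76% of total gene reads). No 2 libraries agreed within sampling noise.

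Unique gene reads were filtered (filterByExpr), TMM-scaled and tested with the edgeR 4.0.16 quasi-likelihood test in R 4.3.3, with genotype as the single term and Benjamini-Hochberg adjustment over 12224 genes. SE is the log2 fold change divided by the square root of F. Steps were tested on simulated data. DESeq2 1.42.0, limma-voom (limma 3.58.1), other scalings, filters and read columns, and each library left out served as alternatives. Total exon reads, haemoglobin genes left out, upper-quartile scaling, members under 90% unique left out, DESeq2 on all genes with a read and DESeq2 without each library were chosen after seeing the data. The members and lists were chosen with earlier results of these data known. Named with full values were *Nfatc1*, members with an unadjusted p under 0.05 or a DESeq2 call, and in each role the member of lowest p and of highest level per length, and by value up to 3 genes of lowest p from each other list. Coordinates are those of the tables (GRCm38) or RefSeq (GRCm38.p6).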

Additional observations from a re-analysis of the deposited data

How the results depend on the processing

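Directions of the members held apart from *Orc1* and *Orc5* below, and the number called depended on the tool. With 0 members called by edgeR, DESeq2 called 4, DESeq2 on all genes with a read 1, and DESeq2 without 1 library 1 (BirA replicate 1), 1 (BirA replicate 2), 11 (BirA replicate 3), 2 (Nc1Bio replicate 1), 1 (Nc1Bio replicate 2) or 1 (Nc1Bio replicate 3). Without BirA replicate 3, DESeq2 called 1.87% of all genes higher, against 0.468% with all 6 libraries. At the thresholds of the study DESeq2 on all 6 libraries called 0 members. The 17 members at an unadjusted p of 0.05 ranged from 7 to 26 when 1 library was left out (share of all genes not given). The median of E2F and pocket protein genes ranged from 0.20 to 0.38. The log2 fold change of *Orc1* turned to 0.053 on total gene reads, and that of *Orc5* ranged from -0.14 to 0.036, above 0 without BirA replicate 1. The cause was not tested. With the replicate number as a block, 19 members had an unadjusted p under 0.05 (share of all genes not given), 0 were called and the members' median was 0.25. Same-numbered libraries deviated together with correlations of 0.339, 0.117 and -0.136, so the numbers were not taken as pairs. At these depths *Orc1* rested on 90 to 159 unique reads, and 9 members had under 90% unique reads.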
